A study of Mus musculus with 2 samples.

Results

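The nuclear-encoded genes of oxidative phosphorylation (OXPHOS) were examined in RNA sequencing of the whole omentum, an abdominal fat tissue that carries lymphoid clusters called milky spots. Members were chosen by symbol alone, namely the Nduf genes of complex I, Sdha to Sdhd of complex II, the Uqcr genes of complex III, Cox4 to Cox8 of complex IV and the Atp5 genes of complex V, whose FPKM averaged 1 or more across the libraries. FPKM is a fragment count normalised to transcript length and to the depth of the library. Of the 24346 gene symbols listed, 84 matched and 82 passed the minimum, out of 13127 genes that passed in all. They comprised 37 genes of complex I, 4 of complex II, 8 of complex III, 16 of complex IV and 17 of complex V. The 2 matches that did not pass were Cox7b2, at 0.126 FPKM in WT and 0 in Postn-DTR, and Cox8c, listed at 0 in both. Nearest to the minimum among those that passed was Cox6a2, with an average of 1.496 FPKM.

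The omenta were from wild-type (WT) mice, 1 library, and from Postn-DTR mice, also 1 library. The latter are heterozygous for a diphtheria toxin receptor cassette in the first coding exon of Postn, on a C57BL/6 background. Both groups received diphtheria toxin (DT), which kills the cells that use the Postn promoter in Postn-DTR mice only, and omenta were taken 5 days later. The Postn promoter is not restricted to one stromal cell type, and neither the age of the mice nor whether a library was a single mouse or a pool was given in the sources used here. With 1 library per genotype there was no spread between replicates, so no difference below has a test. Values are therefore set beside those of all 13127 genes.

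The respiratory chain passes electrons from NADH (complex I) and succinate (complex II) through ubiquinone, complex III and cytochrome c to oxygen (complex IV), and pumps protons across the inner mitochondrial membrane. Complex V, the ATP synthase, lets these protons flow back and makes ATP. Each complex except complex II joins subunits from mitochondrial DNA with those from the nucleus. In fat, brown and beige adipocytes hold far more mitochondria than white adipocytes, and several complex IV subunits have a second gene that is used mainly in muscle and brown fat.

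The deposited FPKM of the targeted gene, Postn, was 58.3 in WT and 16.2 in Postn-DTR, 3.61-fold lower. Depth estimated from the steps between low values was about 23700000 fragments in WT and 24500000 in Postn-DTR. The FPKM did not sum to the same total, with 542190 in WT and 671882 in Postn-DTR. Summed over the genes of each marker list, pancreatic acinar genes were at 12226 FPKM in WT and 20.4 in Postn-DTR, and macrophage genes were at 2819 and 4541. The sum of white adipocyte markers was 7118 and 8005 FPKM, although Adipoq, Plin1, Retn and Lep were lower in Postn-DTR and only Fabp4 was higher. All 5 T cell markers and all 5 B cell markers were lower. The part of these shifts in the values below was not tested. In a bulk tissue, fewer cells of a type cannot be told apart from less RNA per cell.

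In the FPKM as deposited, the OXPHOS genes as a whole were nearly level between the libraries by median, and this held for all 5 complexes. Their medians depended on the scale, as given below. The median change of all members, as log2(FPKM + 1) in Postn-DTR minus WT, was 0.084, against 0.018 for all genes. On this scale 60 of the 82 members (73.2%) lay within 1.2-fold, as did 50.7% of all genes, and 74 (90.2%) lay within 1.5-fold, as did 81.3% of all genes. The middle 50% of members spanned 0.293 on the log2 scale, from -0.069 to 0.22, while the middle 50% of all genes spanned 0.518. Reaching 2-fold lower were 2 members (3.12% of all genes did), and 1 member reached 2-fold higher (3.88% of all genes did). At 1.5-fold, 5 members were lower and 3 higher, where 8.84% of all genes were lower and 9.86% higher.

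The narrow spread was also seen against abundant genes alone. Members were among the most abundant transcripts of the omentum, with a median level of 137.6 FPKM in WT and 155.0 in Postn-DTR, while the median of all genes was 11.5 in both. Among the 71 members with a mean of at least 50 FPKM, 77.5% lay within 1.2-fold and 95.8% within 1.5-fold. Among all 1813 genes at that level, 43.2% and 73.7% did. The members had 55 genes above 0 and 27 below 0, so 67.1% were higher in Postn-DTR, compared with 51.9% of all genes and 69.9% of the abundant genes. The sign of this small difference depended on the scale. After both libraries were set to the same total without acinar genes, 8 of 82 members were higher, against 22.7% of all genes. On that scale the median change was -0.25, where that of all genes was -0.28. Summed FPKM was 15196 in WT and 16421 in Postn-DTR, a ratio of 1.08, whereas the members' share of all FPKM was 2.80% and 2.44%.

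**Figure D1:**
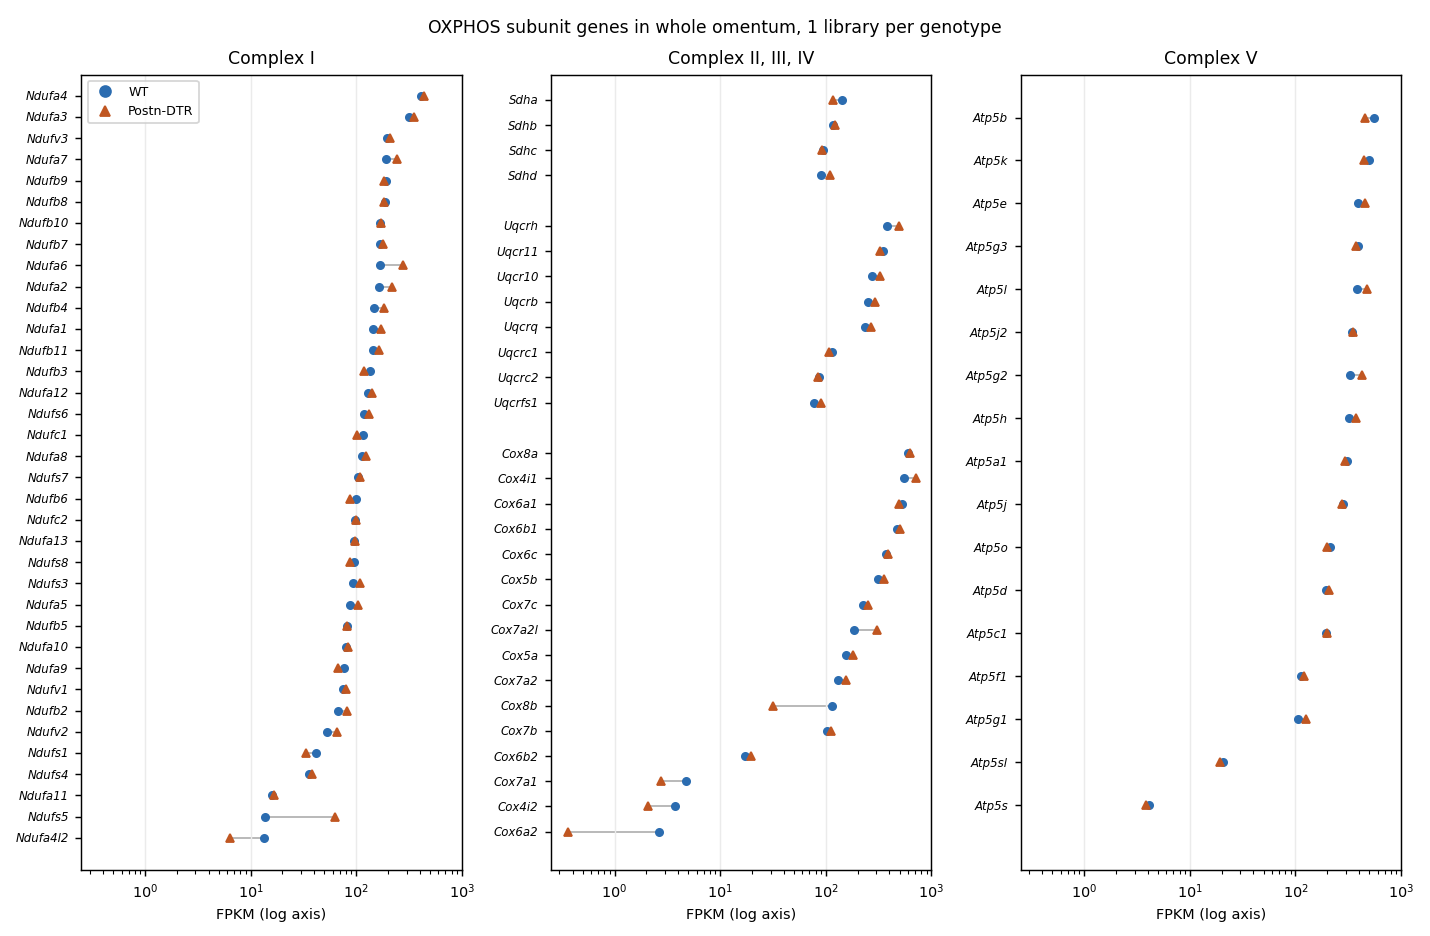
FPKM (log axis) of 81 of the members in WT (circles) and Postn-DTR (triangles), with 1 library per genotype, ordered within each complex by WT level. Most pairs of symbols lie close together. The widest gaps are at Cox8b and Cox6a2 (lower in Postn-DTR) and at Ndufs5 (higher), followed by Ndufa4l2 (2.09-fold lower).

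The medians of the complexes differed by less than the spread of genes within each. The median change was 0.089 for complex I, 0.011 for complex II, 0.19 for complex III, 0.12 for complex IV and 0.029 for complex V. All of them changed sign after scaling to equal totals. The genes of complex III, with the highest median, ran from -0.11 to 0.38, and those of complex II, with the lowest, from -0.27 to 0.25, so that these ranges overlapped. The widest was complex IV, whose middle 50% spanned 0.439, against 0.248 in complex I, 0.199 in complex II, 0.292 in complex III and 0.271 in complex V. Summed FPKM per complex gave ratios of Postn-DTR to WT of 1.11, 0.990, 1.12, 1.10 and 1.03 for complexes I to V.

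The complexes also differed in level, on a scale that is per transcript length. The median WT level was 310.3 FPKM in complex V and 244.8 in complex III, then 170.6 in complex IV, 112.3 in complex I and 105.6 in complex II. In Postn-DTR the medians were 297.2, 279.5, 215.4, 109.2 and 112.7 in the same order of complexes, so that the last 2 exchanged places. The succinate dehydrogenase genes were the most even set, all 4 lying between 90.9 and 141.1 FPKM in WT.

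**Figure D2:**
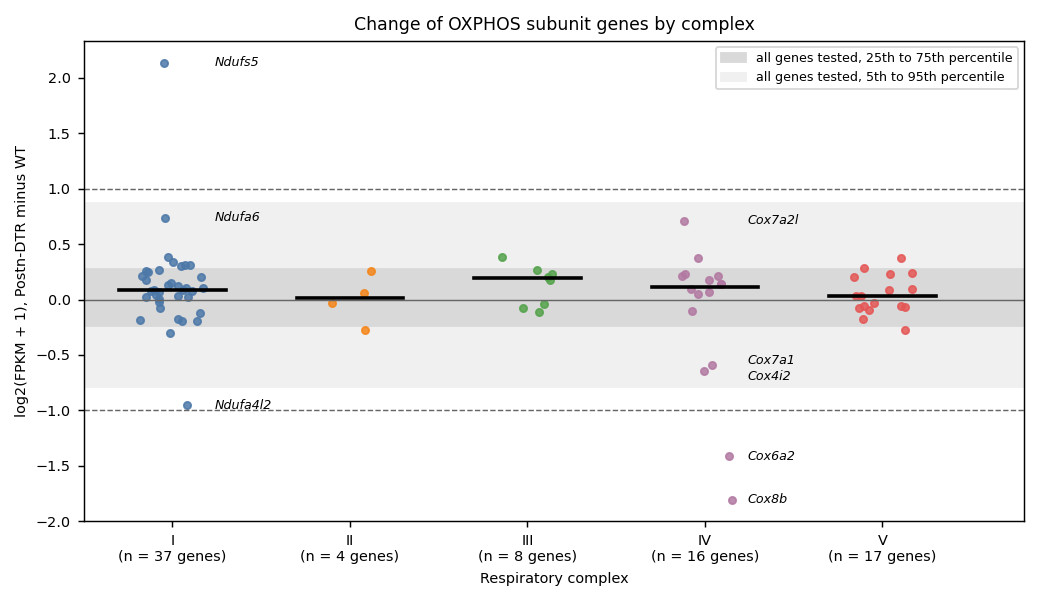
Change of each member, log2(FPKM + 1) in Postn-DTR minus WT, by complex (points: genes, bars: medians), over the 25th to 75th and the 5th to 95th percentile of all 13127 genes (shading), with 2-fold marked by dashed lines. Medians of the 5 complexes lie between 0.011 and 0.19, and the genes past 1.5-fold, which are labelled, belong to complexes I and IV.

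In complex I, the 7 core subunits, which carry the flavin and the iron-sulfur clusters of the NADH-oxidizing arm, had a median change of 0.089. Of the 7, 5 were higher in Postn-DTR, where 51.9% of all genes were (median 0.018). Among genes with a mean of at least 50 FPKM, 69.9% were higher (median 0.20), a share close to that of the core genes. Ndufs1, the large iron-sulfur subunit, had the lowest change of the 37 genes after Ndufa4l2 (-0.30), at 41.3 FPKM in WT and 33.3 in Postn-DTR. Ndufv2, an iron-sulfur subunit beside the flavin, was at 53.1 and 65.7, and its flavin-binding partner Ndufv1 at 74.5 and 79.3. Among other core genes, Ndufs3 was at 92.6 and 107.6, Ndufs7 at 103.0 and 109.2 and Ndufs8 at 94.6 and 86.7. The core genes thus lay on both sides of 0, within 1.5-fold.

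The 29 genes carried as accessory subunits, which surround the core and serve in its assembly and stability, had a median change of 0.10, with 23 higher. Without Ndufa4, a subunit of complex IV despite its name, the median was also 0.10, with 22 of 28 higher. Of all genes 51.9% were higher (median 0.018), and of those with a mean of at least 50 FPKM 69.9% were (median 0.20). The accessory median thus lay below that of abundant genes. Ndufa3, an accessory subunit at 318.3 FPKM in WT and 354.1 in Postn-DTR, was the most abundant of them apart from Ndufa4. Ndufa6, an accessory subunit of the LYR-motif family, was at 166.9 and 278.8, a change of 0.74 that stayed between 0.40 and 0.74 over the other scales and pseudocounts. Its ratio by estimated reads (601 in WT and 1039 in Postn-DTR) had a 95% interval of 1.51 to 1.85. Such intervals cover counting error only, not the differences between mice. The accessory subunit lowest in change was Ndufc1, at 116.9 and 102.3 FPKM.

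Apart from Ndufs5, described next, the other accessory genes lay within 1.5-fold. Ndufa2, a subunit with a thioredoxin-like fold, was at 165.2 and 216.5 FPKM, Ndufa7 at 193.4 and 245.2, and Ndufb4, a subunit of the membrane arm, at 148.6 and 185.1. Ndufa9, which sits near the ubiquinone site, was at 76.1 and 67.5, and Ndufa13, also known as GRIM-19, at 96.2 and 98.1. Ndufs4 and Ndufs6, which are needed late in the assembly of the NADH-oxidizing arm, were at 35.7 and 117.4 FPKM in WT against 38.4 and 132.9 in Postn-DTR. Ndufa11, a membrane-arm subunit, was low in both libraries, at 15.8 and 16.7.

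Ndufs5, an accessory subunit of the intermembrane side, was the only member past 2-fold higher, at 13.7 FPKM in WT and 63.6 in Postn-DTR (change 2.14). Its gene (chr4:123712710-123718202, minus strand, GRCm38) has a processed pseudogene, BC002163 (chr16:42955631-42955949, plus strand), which is listed in the files as a gene of its own. BC002163 showed the opposite, at 87.5 FPKM in WT and 17.6 in Postn-DTR, 4.96-fold lower. The pair is shown because the sequences are nearly identical. The first 120 bases from the start codon are given, read from GENCODE release M21, and capitals mark the differences.
Ndufs5: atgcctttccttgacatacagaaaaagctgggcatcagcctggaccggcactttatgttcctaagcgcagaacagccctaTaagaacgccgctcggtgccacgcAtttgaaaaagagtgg
BC002163: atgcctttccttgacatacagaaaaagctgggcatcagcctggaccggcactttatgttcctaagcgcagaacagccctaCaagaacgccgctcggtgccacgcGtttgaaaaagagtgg

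Over the 319 bases of the pseudogene the sequences differed at 2 positions, T81C and A105G, counted from 1 at the A of the start codon, with the base of Ndufs5 first. The summed FPKM of both was 101.1 in WT and 81.2 in Postn-DTR, which is a change of -0.31. With the pair summed, no member was 2-fold higher. The value of Ndufs5 alone is uncertain for this reason. Another annotated gene with at least 95% identity over at least 200 bases was found for 22 of the 81 members that could be searched, and for 5 of the 22 that gene is itself listed in the files. Some of these are overlapping neighbours rather than copies, such as Tssk6 at Ndufa13 and Donson at Atp5o. Leaving out all 22 gave a median change of 0.071 over the remaining 60 members, with 37 higher and 23 lower.

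Complex II, which is also the succinate dehydrogenase of the tricarboxylic acid (TCA) cycle, had 2 genes on either side of 0. Sdha, the flavoprotein, was at 141.1 FPKM in WT and 116.8 in Postn-DTR, the lowest change of the 4 (-0.27). Sdhb, the iron-sulfur subunit that binds it, was at 116.6 and 121.2. The membrane anchors differed slightly from each other, with Sdhc at 94.6 and 92.4 and Sdhd at 90.9 and 108.6 FPKM. None of the 4 lay past 1.5-fold.

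In complex III all 8 genes lay within 1.5-fold, with 5 higher and 3 lower. Of all genes, 81.3% lay within 1.5-fold and 51.9% were higher. Among those with a mean of at least 50 FPKM the shares were 73.7% and 69.9%. Uqcrc1 and Uqcrc2, the core proteins that face the matrix, were at 113.5 and 86.6 FPKM in WT against 107.4 and 84.0 in Postn-DTR. Uqcrfs1, the Rieske iron-sulfur protein, was at 77.0 and 90.5. Of the 5 other subunits, 4 were higher, with a median change of 0.20 over the 5. Uqcrh, the hinge protein near cytochrome c1, was the most abundant gene of the complex and the one with the highest change, at 377.9 and 493.4 FPKM. Uqcrb and Uqcrq, small subunits next to cytochrome b, were at 253.1 and 236.5 FPKM in WT against 291.4 and 267.7 in Postn-DTR. Uqcr10 was at 272.5 and 328.9, and Uqcr11 was the lowest in change, at 349.4 and 323.4.

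Complex IV held both members past 2-fold lower, Cox8b and Cox6a2, of which Cox6a2 passed the minimum only through its WT value. The 10 widely used subunits had a median change of 0.14 with 9 of 10 higher, and their summed FPKM was 3453 in WT and 3784 in Postn-DTR. This median lay below the 0.20 of all genes with a mean of at least 50 FPKM, of which 69.9% were higher. Of all genes tested, 51.9% were higher. The 5 tissue-restricted isoforms (Cox4i2, Cox6a2, Cox6b2, Cox7a1 and Cox8b) had a median change of -0.64 with 1 of 5 higher, and their sum was 142.0 and 56.6 FPKM, a ratio of 0.399. This sum was mostly Cox8b, and Cox8b alone was past 2-fold lower with a pseudocount of 5 or a minimum of 10 FPKM. These are counts from 1 library a genotype and from few genes, and the 2 groups of subunits were not compared by a test.

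Cox8b encodes a subunit of complex IV used mainly in heart, skeletal muscle and brown fat, and Cox8a its widely used paralog. Cox8b (chr7:140898945-140900446, minus strand, GRCm38) was at 113.7 FPKM in WT and 31.8 in Postn-DTR, 3.57-fold lower. Its change of -1.80 stayed between -2.14 and -1.69 over the other scales and pseudocounts. The estimated reads were 350 and 101, with a 95% interval of 0.22 to 0.35 for the ratio of Postn-DTR to WT. Cox8a was at 603.1 and 633.2 FPKM, so Cox8b made up 15.9% of the pair in WT and 4.79% in Postn-DTR. In rank among all genes, Cox8b stood at the 94.7 percentile in WT and at 77.1 in Postn-DTR. No other annotated transcript with at least 95% identity over 200 bases was found for Cox8b.

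The other restricted isoforms were near the limit of what this depth resolves. Cox6a2, the heart and muscle form of subunit 6a, was at 2.63 FPKM in WT and 0.363 in Postn-DTR, 7.24-fold lower on 28 and 4 estimated reads, so that the interval of the ratio ran from 0.04 to 0.39. Cox7a1, the muscle and brown fat form of subunit 7a, was at 4.70 and 2.77 on 23 and 14 reads, with an interval of 0.28 to 1.19, which includes no difference. Cox4i2, a form of subunit 4 known from lung and hypoxic cells, was at 3.76 and 2.05 on 45 and 25 reads, with an interval of 0.32 to 0.90. Cox6b2, known from testis, was the exception, at 17.2 and 19.6 FPKM. By contrast the common forms held 84.1% or more of each pair in WT and 95.2% or more in Postn-DTR.

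**Figure D3:**
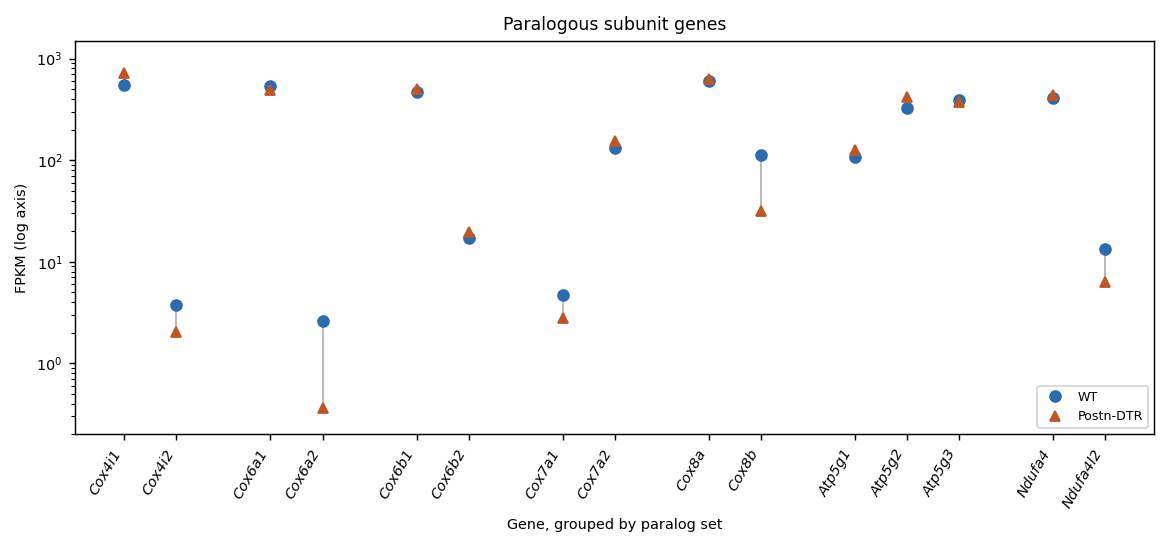
FPKM (log axis) of paralogous subunit genes in WT (circles) and Postn-DTR (triangles), 1 library per genotype, grouped by subunit. Cox8b is the most abundant restricted isoform of complex IV in WT, followed by Cox6b2 at 17.2 FPKM, and its common partner Cox8a lies at 603.1 and 633.2 FPKM.

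Among the common forms, Cox4i1, the largest nuclear subunit, was at 551.9 FPKM in WT and 715.6 in Postn-DTR. Cox6a1 was at 531.5 and 493.6, Cox6b1 at 468.8 and 500.5, and Cox7a2 at 130.6 and 153.7. Cox5a and Cox5b, subunits on the matrix side, were at 155.9 and 309.4 FPKM in WT against 180.6 and 358.5 in Postn-DTR. The small membrane subunits Cox6c, Cox7b and Cox7c were at 373.3, 101.8 and 226.3 in WT against 385.8, 112.0 and 250.3. Cox6a1 was thus the only gene of the 10 widely used genes below 0. Cox7a2l, which links complexes III and IV in supercomplexes and is not a subunit of every complex IV, was at 185.2 and 304.0, a change of 0.71 that stayed between 0.37 and 0.71 over the other scales. A sequence with 98.0% identity, Gm6969, is annotated for Cox7a2l.

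Markers of cells that use the restricted isoforms were sparse. Of 5 brown and beige adipocyte markers only Cidea, a lipid droplet protein, passed the minimum, at 4.46 FPKM in WT and 1.90 in Postn-DTR. Ucp1, the uncoupling protein that defines brown fat, was at 0.0595 and 0.288, and Ppargc1a, a coactivator of mitochondrial genes, at 0.336 and 0.475. The summed level of the 5 was 5.33 and 3.58 FPKM. Of 5 skeletal muscle markers 2 passed (Mylpf and Tnnt3), with a sum over all 5 of 3.37 and 3.61 FPKM, Ckm at 0.0707 and 0.103 and Myh4 listed at 0 in both. Cidea was lower in Postn-DTR, as was Cox8b, but every other marker of that list was higher, though below the minimum. Dio2 was at 0.375 and 0.421 FPKM and Elovl3 at 0.102 and 0.495. Among the muscle markers, Mylpf, a light chain, was at 2.02 and 1.73, while Tnnt3 was higher in Postn-DTR, at 0.917 and 1.33. Acta1, also higher, was at 0.369 and 0.454. The part of brown fat or muscle cells in the Cox8b values was not tested.

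The promoters of Cox8a and Cox8b, and of Cox7a2 and Cox7a1, are shown because these pairs serve the same subunit at very different levels. They are the 250 bases before the annotated start, credited to RefSeq on GRCm38.p6, with every CG pair in capitals.
Cox8a, chr19:7217617-7217866, minus strand: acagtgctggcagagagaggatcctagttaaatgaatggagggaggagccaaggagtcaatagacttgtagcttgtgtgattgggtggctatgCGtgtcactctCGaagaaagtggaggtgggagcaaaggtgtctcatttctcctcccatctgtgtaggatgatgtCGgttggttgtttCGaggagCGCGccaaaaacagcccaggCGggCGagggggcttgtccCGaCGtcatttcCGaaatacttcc
Cox8b, chr7:140900447-140900696, minus strand: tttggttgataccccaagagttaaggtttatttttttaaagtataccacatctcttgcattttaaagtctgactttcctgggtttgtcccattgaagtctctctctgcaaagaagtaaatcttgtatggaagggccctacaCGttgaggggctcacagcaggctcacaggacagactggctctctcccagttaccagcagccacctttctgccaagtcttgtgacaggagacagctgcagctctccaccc
Cox7a2, chr9:79759854-79760103, minus strand: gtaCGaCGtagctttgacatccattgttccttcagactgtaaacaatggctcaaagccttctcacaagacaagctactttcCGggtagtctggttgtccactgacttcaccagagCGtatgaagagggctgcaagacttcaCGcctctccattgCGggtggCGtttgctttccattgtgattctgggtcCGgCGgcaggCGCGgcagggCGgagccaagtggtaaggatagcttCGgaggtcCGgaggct
Cox7a1, chr7:30183921-30184170, plus strand: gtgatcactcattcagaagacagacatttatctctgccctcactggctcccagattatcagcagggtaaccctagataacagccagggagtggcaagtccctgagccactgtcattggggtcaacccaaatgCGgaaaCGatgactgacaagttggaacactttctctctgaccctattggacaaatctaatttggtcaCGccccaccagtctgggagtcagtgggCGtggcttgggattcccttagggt

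The Cox8b window held 1 CG pair and that of Cox8a 11, and the Cox7a1 window held 4 and that of Cox7a2 14. Promoters rich in CG pairs are typical of genes that most cells use. A promoter was found for 68 of the 82 members, with a median of 14 CG pairs, against a median of 6 over 27025 promoters of the same length. Cox8b had the fewest of the 68, and 19.4% of all promoters held 1 or none. Cox7a1 and Ndufc2 followed with 4 each, where 44.5% of all promoters held 4 or fewer. Promoters of Cox6a2, Cox4i2 and Ndufa4l2 were not matched.

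Short motifs were searched for on both strands of the same windows. The core GCATGCGC, read by NRF1, was in 8 of 68 members (11.8%) and in 2.32% of all promoters. The letters CCGGAAG, an ETS-type site as bound by GABP, were in 11 members (16.2%) and in 7.05% of all. TCAAGGTCA, the element of estrogen-related receptors, was in 1 member (1.47%), Atp5g3, and in 0.366% of all. TATAAA was in 5 members (7.35%) and in 13.0% of all. None of these motifs was in the 4 promoters printed above. Overlap between matches of different motifs was not examined. A match is a description of letters, not a bound site.

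Moving Ndufa4 to complex IV, with the matches that are not subunits left out, kept the sign of both medians. Ndufa4 was at 412.4 FPKM in WT and 434.6 in Postn-DTR. Its paralog Ndufa4l2, a hypoxia-responsive gene, was at 13.3 and 6.37 FPKM, 2.09-fold lower as a plain ratio but short of 2-fold on the log2(FPKM + 1) scale (-0.96). It was past 2-fold with a pseudocount of 0.1 (-1.05), at equal totals (-1.26) and at equal 75th percentiles (-1.02). Estimated reads were 222 and 110, with an interval of 0.38 to 0.60. Ndufa4l2 made up 3.12% of the pair in WT and 1.44% in Postn-DTR.

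In complex V the catalytic head, the peripheral stalk and the small membrane subunits were all close to level by median, and the c ring, described next, was higher. Atp5b, the catalytic beta subunit and the most abundant gene of the complex in WT, had the lowest change, at 551.9 FPKM in WT and 455.4 in Postn-DTR (-0.28). Its partner in the head, Atp5a1 (alpha), was at 310.3 and 297.2. The 5 head genes had a median change of 0.033, the 4 genes of the peripheral stalk 0.028, and the 3 small membrane subunits 0.029. The central stalk genes of the head, Atp5c1 (gamma), Atp5d (delta) and Atp5e (epsilon), were at 192.9, 195.2 and 392.5 FPKM in WT against 197.4, 208.2 and 459.7 in Postn-DTR. In the peripheral stalk, Atp5h was at 322.8 and 371.0, Atp5f1 at 113.5 and 120.4, Atp5j at 280.7 and 274.9, and Atp5o, which joins the stalk to the head, at 211.3 and 201.1. Of the membrane subunits, Atp5j2 was at 344.3 and 351.2, Atp5k at 499.8 and 441.3 and Atp5l at 385.4 and 470.8. Atp5l has 9 annotated copies with at least 95% identity.

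The proton-carrying c ring is made from 3 genes that encode the same mature protein. Atp5g1 was at 106.6 FPKM in WT and 126.3 in Postn-DTR, Atp5g2 at 325.0 and 423.0, and Atp5g3 at 387.1 and 371.7. The median change of the 3 was 0.24, with 2 higher and 1 lower. Atp5g3 was the highest in WT and Atp5g2 in Postn-DTR, with Atp5g2 at 39.7% and 45.9% of the sum and Atp5g3 at 47.3% and 40.4%. Both Atp5g1 and Atp5g2 have annotated near-identical copies, and Atp5g3 has none. The matches Atp5s, coupling factor B, and Atp5sl, now called Dmac2 and a complex I assembly factor, are not subunits of the synthase. They were at 4.08 and 20.6 FPKM in WT against 3.82 and 19.3 in Postn-DTR.

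Most members have short transcripts, and short transcripts as a class were higher in Postn-DTR. The median annotated length of the members was 743.5 bases (321 to 2900), against 2593 bases over 12659 genes with a length. By complex the median was 519.5 bases in complex III, 625.5 in IV, 782 in I, 838 in V and 1612 in II, so the order of the complexes by length was the reverse of their order by median change. Across the 82 members, Spearman's rho of length and change was -0.20, and across all genes it was -0.14. Pearson's correlation of log length and change over the members was close to none, at -0.038. These are descriptions over genes of the same 2 libraries.

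Among abundant genes of up to 1000 bases, the median change was 0.31 over 446 genes, and 77.6% of them were higher in Postn-DTR. The 48 members of that length and level had a median of 0.11, with 36 higher. Without the limit on level, the median was 0.18 over 1229 genes and 0.094 over 55 members. Up to 500 bases the medians were 0.34 for all genes and 0.15 for 13 members, and between 500 and 1000 bases they were 0.16 and 0.088. Between 1000 and 2000 bases they were 0.075 and 0.056, so the members' median lay below that of all genes in each of these classes. Above 2000 bases there were 6 members.

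**Figure D4:**
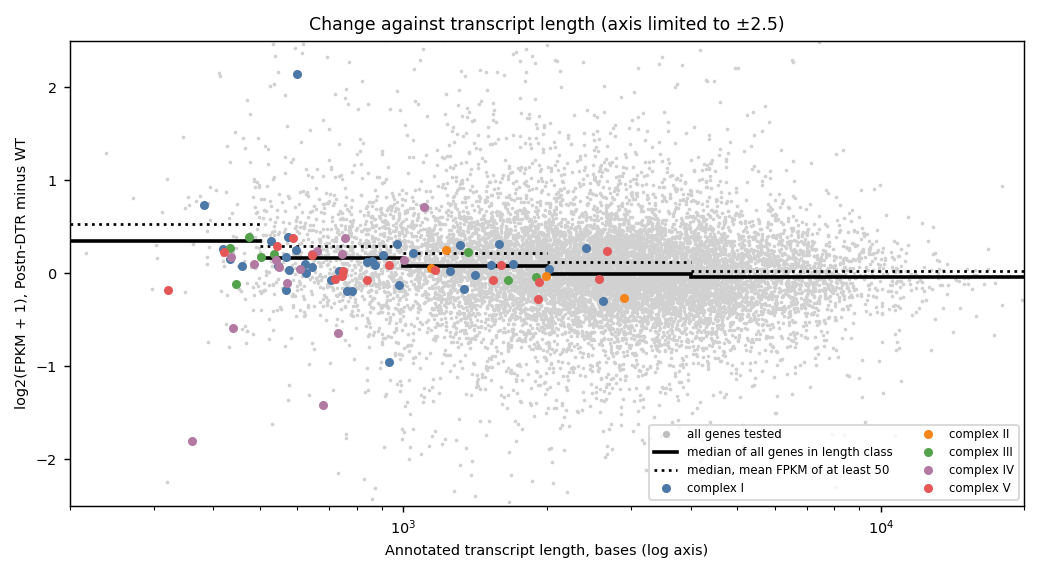
Change, log2(FPKM + 1) in Postn-DTR minus WT, against annotated transcript length (log axis) for all genes (grey) and members (coloured by complex), with the median of each length class (solid: all genes, dotted: mean FPKM of at least 50). Medians of all genes fall from 0.34 up to 500 bases to -0.042 above 4000 bases, and members are spread on both sides of 0.

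Other genes of the same machinery were taken from lists drawn up with earlier results of these libraries known. Of 5 subunit or inhibitor genes whose symbols fall outside the rule, 3 were higher. Cyc1, cytochrome c1 of complex III, was at 106.1 FPKM in WT and 88.6 in Postn-DTR, and Ndufab1, the acyl carrier subunit of complex I, at 74.0 and 62.7. Usmg5, a small subunit of the ATP synthase, was at 236.7 and 294.1, and Atpif1, its inhibitor, at 36.7 and 43.2. None of the 13 mitochondrially encoded subunits was found under the symbols tried, so they are not analysed here.

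Assembly factors, which build the complexes without staying in them, were on balance slightly lower. Their 45 genes had a median change of -0.089, with 16 higher and 29 lower, where all genes had a median of 0.018 and 51.9% higher. None reached 2-fold in either direction, while 3.12% of all genes were 2-fold lower and 3.88% higher. Sdhaf1, an assembly factor of complex II, was at 16.7 FPKM in WT and 31.0 in Postn-DTR, and Bcs1l, which inserts the Rieske protein into complex III, at 10.9 and 6.33. Cox20 and Coa5, of complex IV assembly, were at 87.5 and 32.8 in WT against 56.6 and 22.1 in Postn-DTR. By complex served, the median was -0.19 for I (13 genes), 0.10 for II (4), -0.13 for III (6), -0.052 for IV (19) and -0.18 for V (3). The 12 genes of the electron carriers ubiquinone and cytochrome c were level, with 6 on each side of 0 and a median of -0.015. Of these, Cycs, cytochrome c itself, was at 29.2 and 24.2 FPKM, and Coq10b at 9.47 and 16.2.

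Most genes of the enzymes that feed electrons into the chain were lower in Postn-DTR. Of 16 genes of the TCA cycle and pyruvate dehydrogenase, 13 were lower and 3 higher, with a median change of -0.22. Only Pdhb reached 2-fold lower, as did 3.12% of all genes. Of all genes 51.9% were higher, with a median change of 0.018. Among the OXPHOS members 27 of 82 were lower, and the differences between these shares were not tested. Pdhb and Pdha1, the subunits of the pyruvate dehydrogenase E1 enzyme, were at 143.4 and 149.5 FPKM in WT against 70.6 and 75.1 in Postn-DTR. Dlat, the E2 subunit, was at 22.95 and 12.9. Cs, the citrate synthase that opens the cycle, was at 158.2 and 96.7. Pyruvate dehydrogenase and citrate synthase also supply citrate for fat synthesis. Of the 5 white adipocyte markers, 4 were lower in the same library and Fabp4 was higher, at 4879 FPKM in WT and 6519 in Postn-DTR, and their summed level was 7118 and 8005. The part of adipocytes in these values was not tested.

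Regulators of mitochondrial biogenesis were within 1.5-fold apart from Ppargc1b, a coactivator, at 0.460 FPKM in WT and 1.77 in Postn-DTR. Ppargc1b was close to the minimum and passed it only through its Postn-DTR value. The 11 regulators that passed had a median change of 0.094, with 8 higher, Ppargc1b among them. Nrf1, a transcription factor of many respiratory genes, was at 8.11 and 11.4. Of 10 genes of the outer membrane, protein import and chaperones, 9 were higher, with a median of 0.21. Among all genes 51.9% were higher (median 0.018), and among those with a mean of at least 50 FPKM 69.9% were (median 0.20). Tomm20, an import receptor, was at 17.2 and 26.2 FPKM, and Hspd1 was the 1 lower, at 97.4 and 88.0. Ucp2, an inner membrane carrier that macrophages use, was at 370.0 and 687.9 FPKM, while macrophage markers were higher in 5 of 5, a shift whose part in Ucp2 was not tested. Scaling to equal totals shifted the median of all genes by -0.30, and these other lists were not recomputed on that scale.

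**Figure D5:**
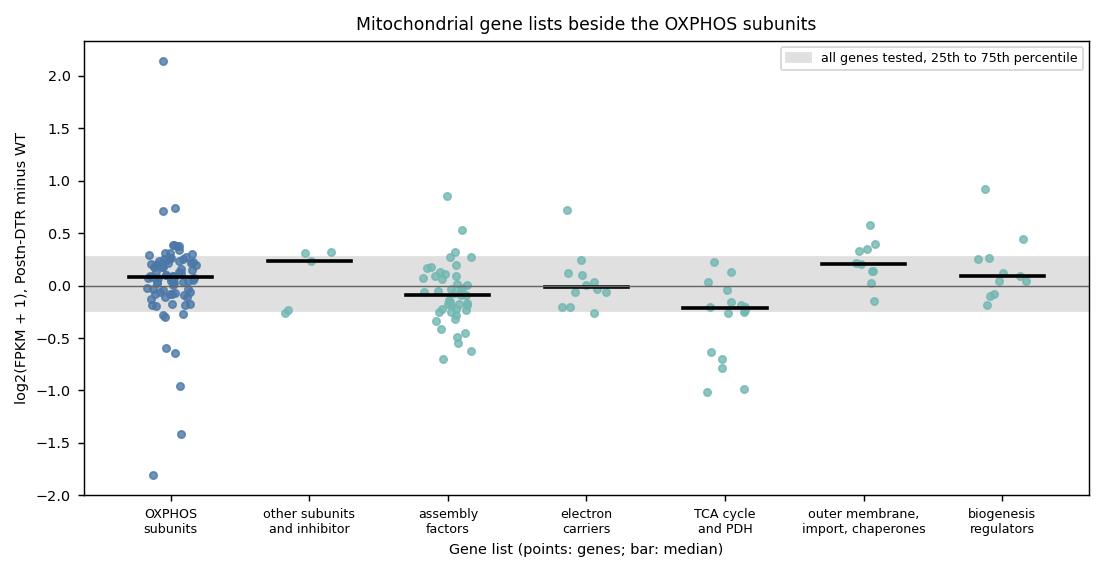
Change, log2(FPKM + 1) in Postn-DTR minus WT, of the 82 OXPHOS members beside other mitochondrial gene lists (points: genes, bars: medians), over the 25th to 75th percentile of all genes (shading). The bar of the TCA cycle and pyruvate dehydrogenase list is the lowest, at -0.22, and those of the other lists lie between -0.089 and 0.23.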

How the data were processed

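Whole omentum of DT-treated WT and Postn-DTR mice was profiled by RNA sequencing, 1 library per genotype. Per the labels, a miRNeasy kit gave the RNA and a TruSeq kit for stranded mRNA the libraries. The authors deposited FPKM, 1 value per gene symbol and library, and no column was left unused (0). The submitters' processing notes name mm10 and, with no role or order, TopHat2 2.1.1, Bowtie2 2.2.8, SAMtools 0.1.18 and Cuffdiff 2.2.1. The annotation was not given in the sources used here.

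Genes whose FPKM averaged 1 or more were compared as log2(FPKM + 1), taking WT from Postn-DTR. This scale makes changes of low genes smaller. A gene counted as changed at 2-fold on this scale, and folds quoted for single genes are plain FPKM ratios. With 1 library per genotype no test was made, and no paired design exists. Groups came from the genotype labels. Positions and transcript lengths came from GENCODE release M21 on GRCm38, in which 23310 of the symbols and 82 of the 82 members matched (81 by symbol and 1 by a synonym). Similar sequences were searched for with blastn 2.17.0+ in its transcripts. Depth was estimated from 723 genes under 0.1 FPKM in both libraries, of which 174 shared one ratio of values (0.967), and from whole-read steps, which 74.8% of 341 low genes met within 0.06 of a read. Estimated reads are therefore approximate, and 95% exact binomial intervals on them cover counting error only. Python 3.11.15, pandas 2.3.3, numpy 2.4.6, scipy 1.17.1 and matplotlib 3.10.9 were used, and the fold calculation was tested on simulated data.

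The members and lists were chosen with earlier results of these data known. Named members were those past 2-fold, the 2 highest and 2 lowest changes and the highest WT level of each complex, all isoform pairs, and the matches nearest to the minimum. Other lists were given with their count, median and up to 4 members of the largest change, and further members by role. Alternatives were pseudocounts of 0.1 and 5, centring on the median of all genes, equal totals without acinar genes, equal 75th percentiles, minimums of 10 or none, a 1.5-fold threshold, and subunits only. The values of 1 member are not reported here, although it is counted in the totals.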

Additional observations from a re-analysis of the deposited data

How the results depend on the processing

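With 1 library per genotype no replicate could be left out. No paired analysis was possible because each genotype had a single library. Scaling was the choice that moved most values. With acinar genes removed and equal totals, the median of all genes shifted by -0.30 to -0.28, and that of all members became -0.25. The medians by complex were then -0.25 for I, -0.33 for II, -0.15 for III, -0.22 for IV and -0.31 for V. On that scale 8 of the 82 members were above 0, against 22.7% of all genes. At equal 75th percentiles complex II was at -0.066 and complex V at -0.048, and centring put complex II at -0.0075. Leaving out members with near-identical copies, chosen after seeing the data, put complex V at -0.060. Members at least 2-fold lower numbered 1 with a pseudocount of 5, 1 with an FPKM average of 10 or more, and 5 at 1.5-fold. They numbered 3 with a pseudocount of 0.1, at equal totals and at equal 75th percentiles, where Ndufa4l2 passed 2-fold. Members at least 2-fold higher numbered 3 at 1.5-fold and 0 with Ndufs5 and BC002163 summed, also chosen after seeing the data. Of the 30 named members, 20 kept their sign under all 5 alternatives of scale and pseudocount. Depth limits Cox6a2, Cox7a1 and Cox4i2, which rest on 45 estimated reads or fewer in either library.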
